A study of Mus musculus with 12 samples.

Results

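Int2 is a name for interneurons in the prefrontal cortex of newborn mice, and its members here were all cells that the deposited annotation calls Int2 [14-P]. The name does not settle that each cell is inhibitory. Any GABA gene was above 0 in 29.4% of them, as described below. That share depended on depth, at 20.5% in cells below 1000 molecules and 68.9% in those of 2000 or more, so it is no count of inhibitory cells. The name Int2 was transferred to each cell from a reference atlas of developing mouse cortex. There were 1398 Int2 cells among 36263 cells of 21 types, and 5667 cells carried a name from Int1 to Int4.

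The study profiled single cells of prefrontal cortex from mice at postnatal day 0, with animals of 3 Myt1l genotypes. The strain is C57BL/6J in the labels, whereas the methods describe founders made in and bred to C57BL/6N. Myt1l (mm10 chr12:29528384-29923213, plus strand) encodes a zinc finger transcription factor of neurons. WT mice carried 2 intact alleles (Myt1l+/+), HET mice 1 intact and 1 mutant allele (Myt1l+/-), and HOM mice 2 mutant alleles (Myt1l-/-). The mutant allele is a small germline deletion in an early coding exon made with Cas9, which shifts the reading frame to a premature stop, so every cell of an animal carries it and no Cre line is involved. Tissue from 2 animals per genotype was fixed in methanol, tagged with barcoded oligos and pooled into 1 droplet library per genotype, which was sequenced in 4 runs. WT, HET and HOM below mean the libraries that the deposited files label so. The labels conflict with the cell totals that the study prints for its genotypes: the library labelled WT has the total printed there for -/-, the one labelled HET that of +/+, and the one labelled HOM that of +/-. The study reports more layer I neurons in -/- and fewer migrating subventricular cells in mutants. By the labels, LayerI cells made up 0.676% of WT, 0.944% of HET and 1.73% of HOM, and SVZ2 cells 0.419%, 0.157% and 0.0219%. By the printed totals, -/- would hold the lowest share of LayerI and the highest of SVZ2 cells. These shares are not genotype calls and do not settle which is right, so each direction between genotypes below holds for the labels only. No map from cells to animals was used here, so each genotype was 1 library and its values have no replicate check. For that reason no p-value is given, and the intervals, all at 95%, cover counting error only. Those of shares are exact Clopper-Pearson intervals, and those of ratios of shares are normal approximations on the log ratio.

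Int2 cells were shallow. Their median depth was 770 molecules (806, 761 and 759 in the WT, HET and HOM libraries), against 2708 in Int1, 1433 in Int3 and 1192 in Int4, and 122 cells (8.73%) held 2000 molecules or more. The probability of the transferred name had a median of 0.977 in Int2, and 919 cells (65.7%) reached 0.9. The deposited values are counts corrected to a common depth, so that each Int2 cell summed to between 850 and 1856. A level below is the sum of a gene over a group of cells, per 1000000 of the summed values of all genes. Of the barcodes, 648 occurred in more than 1 library, and 50 Int2 cells carried such a barcode. Xist was above 0 in 19 WT Int2 cells and in 0 HET or HOM cells, while a Y-linked transcript was above 0 in 12, 55 and 57. The sex of the cells thus differed between libraries. Its part in the results was not tested, beyond recomputing Int2 shares and counts of genes past 2-fold in cells with a Y-linked transcript.

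Neuropeptides are cut from larger precursor proteins inside dense core vesicles, and are released by neurons beside their fast transmitter. In the cortex, somatostatin and neuropeptide Y are made by GABA neurons that are born in the medial ganglionic eminence (MGE) of the embryo and migrate into the cortical plate. Vasopressin and gonadotropin-releasing hormone are best known from neurons of the hypothalamus and the preoptic area.

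The promoters of 3 genes of peptide secretion are shown, since Sst and Npy are the most abundant peptide genes of Int2 and Scg2 marks a further set of its cells, described below. Sst (mm10 chr16:23889573-23890958, minus strand) encodes somatostatin, Scg2 encodes secretogranin II of the vesicle core, and Npy (mm10 chr6:49822710-49829507, plus strand) encodes neuropeptide Y. The sequences are from RefSeq on GRCm38.p6, run 5′ to 3′ on the gene's strand from 250 bases before the transcription start to 50 after it, and span chr16:23890795-23891094 (minus strand), chr1:79439977-79440276 (minus strand) and chr6:49822460-49822759 (plus strand). Capitals mark the palindromic cAMP response element, TGACGTCA.
Sst: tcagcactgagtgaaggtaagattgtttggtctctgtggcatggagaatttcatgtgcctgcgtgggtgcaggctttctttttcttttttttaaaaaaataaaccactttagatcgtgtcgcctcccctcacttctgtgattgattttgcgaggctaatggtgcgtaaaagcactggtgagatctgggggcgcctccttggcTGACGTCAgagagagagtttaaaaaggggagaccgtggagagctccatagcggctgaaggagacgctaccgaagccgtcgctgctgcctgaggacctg
Scg2: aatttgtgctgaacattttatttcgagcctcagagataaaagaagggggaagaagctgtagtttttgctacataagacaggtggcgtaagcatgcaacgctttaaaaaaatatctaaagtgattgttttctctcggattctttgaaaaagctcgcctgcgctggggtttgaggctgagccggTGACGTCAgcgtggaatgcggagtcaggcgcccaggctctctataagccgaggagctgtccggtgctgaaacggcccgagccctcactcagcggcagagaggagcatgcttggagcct
Npy: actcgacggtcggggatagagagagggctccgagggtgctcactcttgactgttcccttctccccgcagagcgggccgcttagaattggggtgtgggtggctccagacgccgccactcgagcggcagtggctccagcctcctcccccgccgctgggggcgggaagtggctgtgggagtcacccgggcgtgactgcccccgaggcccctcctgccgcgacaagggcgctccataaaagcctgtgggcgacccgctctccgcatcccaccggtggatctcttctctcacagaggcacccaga
The element began 48 bases before the start of Sst and 68 bases before that of Scg2, and these 8 letters were not in the Npy window. Of 9 windows searched, those 2 held the element, and those of Npy, Avp, Tac1, Resp18, Nts, Nos1 and Cort did not. They occurred in 588 of 32851 RefSeq promoter windows (1.79%), on either strand, since the sequence is its own reverse complement. The letters AAAGTT, the core that proteins of the MYT1 family bind, were searched on both strands, do not overlap the other motif, occurred in 4617 windows (14.1%), and were in 0 of the 9. A match is a description of the letters and not a measured site.

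The 6 genes that mark Int2 were all higher than in the other Int types, but they did so in different ways. Over all libraries the level of Avp (mm10 chr2:130580620-130582554, minus strand; vasopressin) was 814 per 1000000 against a mean of 3.26 in Int1, Int3 and Int4. That of Gnrh1 (mm10 chr14:67745181-67749439, plus strand; gonadotropin-releasing hormone) was 161 against 1.31, and that of Sst 1451 against 144. Resp18, an endocrine protein of the secretory pathway, stood at 110 against 9.55, the calcium-binding protein gene Calb1 at 91.5 against 17, and Tac1, the precursor of substance P, at 64.3 against 4.53. Of the 21 cell types, Int2 had the highest level of Avp, Gnrh1, Sst, Calb1 and Resp18, and the second highest of Tac1. These genes define the type, so the differences are a description.

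The Avp signal came from a pair of cells. In the HOM library 1 cell had a value of 856 and another 359, together 98.9% of the Int2 sum of 1229, and the next highest Int2 cell had 2. Avp took 57.0% and 28.6% of everything counted in these cells, which held 1903 and 1271 molecules. Both also had Resp18, at 12 and 5, with Oxt, the gene of the sister hormone oxytocin, at 0 in both, and Otp, a factor of hypothalamic peptide neurons, at 0 and 1. The GABA genes Gad1, Gad2 and Slc32a1 were at 0 in both, and the glutamate transporter gene Slc17a6 at 1 and 0. Avp was above 0 in 0 WT, 1 HET and 11 HOM Int2 cells, which is 0.858% of Int2 (interval 0.444 to 1.49), against 0.459% of Microglia and 0.145% of Endothelial1 cells, types that should lack it. Outside Int2 it was above 0 in 16 WT, 0 HET and 86 HOM cells, so the HOM library held more Avp at low values in other types as well.

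Gnrh1 was likewise a matter of single cells. A HET cell with 217 and a WT cell with 21 held 97.9% of the Int2 sum of 243, and the gene was listed at 0 in all HOM Int2 cells. The HET cell was among the deepest, with 11042 molecules, and Gnrh1 took 16.5% of its corrected counts. Whether it was a doublet was not tested. No other Int2 cell had more than 2 of either gene.

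Sst and Npy were the peptide genes of many Int2 cells. Sst was above 0 in 302 cells (21.6%, interval 19.5 to 23.9), against 3.90% of Microglia (median 787 molecules) and 3.91% of Endothelial1 cells (1458 molecules). Npy was above 0 in 391 (28.0%, interval 25.6 to 30.4), against 15.8% and 9.84%, so part of the Npy share lay at the level of cells that should lack it. Both genes were above 0 in 176 cells, and 58.3% of the cells with Sst had Npy against 19.6% of those without. In the cells of 2000 molecules or more, 34.4% had Sst and 37.7% Npy, and 73.8% of those with Sst had Npy.

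Most of this peptide RNA sat in a small, separate set of cells. The deposited clustering put 842 Int2 cells (60.2%) in cluster 5, and 100 (7.15%) in cluster 10, where they lay among 1259 Int1 cells. Those 100 cells held 72.1% of all Sst and 68.5% of all Npy of Int2. Sst was above 0 in 92% of them (interval 84.8 to 96.5) and Npy in 87.0% (78.8 to 92.9), at levels of 12702 and 14384 per 1000000. In the 1298 Int2 cells outside cluster 10 the shares were 16.2% and 23.4% and the levels 441 and 592. The cluster labels were made from the same counts, so this contrast describes where the RNA lies and is no test.

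The Int2 cells of cluster 10 also carried Nos1, Chodl and Tacr1, genes known beside Sst and Npy from long-range GABA neurons of cortex, and named here after their values were seen. Nos1, the neuronal nitric oxide synthase, was above 0 in 25.0% of them (interval 16.9 to 34.7), against 1.93% (1.25 to 2.83) in the remaining Int2 cells. Chodl, a membrane protein gene, was above 0 in 14 of the 100 cells and in 4 of the other 1298, and Tacr1, the receptor of substance P, in 8 and 2. The MGE factors Sox6 and Lhx6 were above 0 in 38.0% and 43.0%, against 4.62% and 9.01%. All 41 Int2 cells with at least 10 of both Sst and Npy were in cluster 10, of which 10 were WT, 18 HET and 13 HOM. That bound was set after the values were seen, and 16 further cells had 8 or 9 of Sst and 10 had 8 or 9 of Npy. Of all 1747 Int1 cells, 8 had at least 10 of both.

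The Int1 cells of the same cluster shared only part of this pattern. Sox6 was above 0 in 33.3% of them, against 38.0% of the Int2 cells. Sst was above 0 in 14.8% of those 1259 cells, Npy in 28.8% and Nos1 in 0.635%, while Lhx6 was above 0 in 68.9% and Gad2 in 58.1%. Against them the Int2 cells had less Gad2 (17%) but a like share with Gad1 (34.0% against 29.2%). The median depth of the Int2 cells of cluster 10 was 1467 molecules, above that of Int2 as a whole. That of the Int1 cells of cluster 10 was 3488, so these shares were not taken at like depth.

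**Figure D1:**
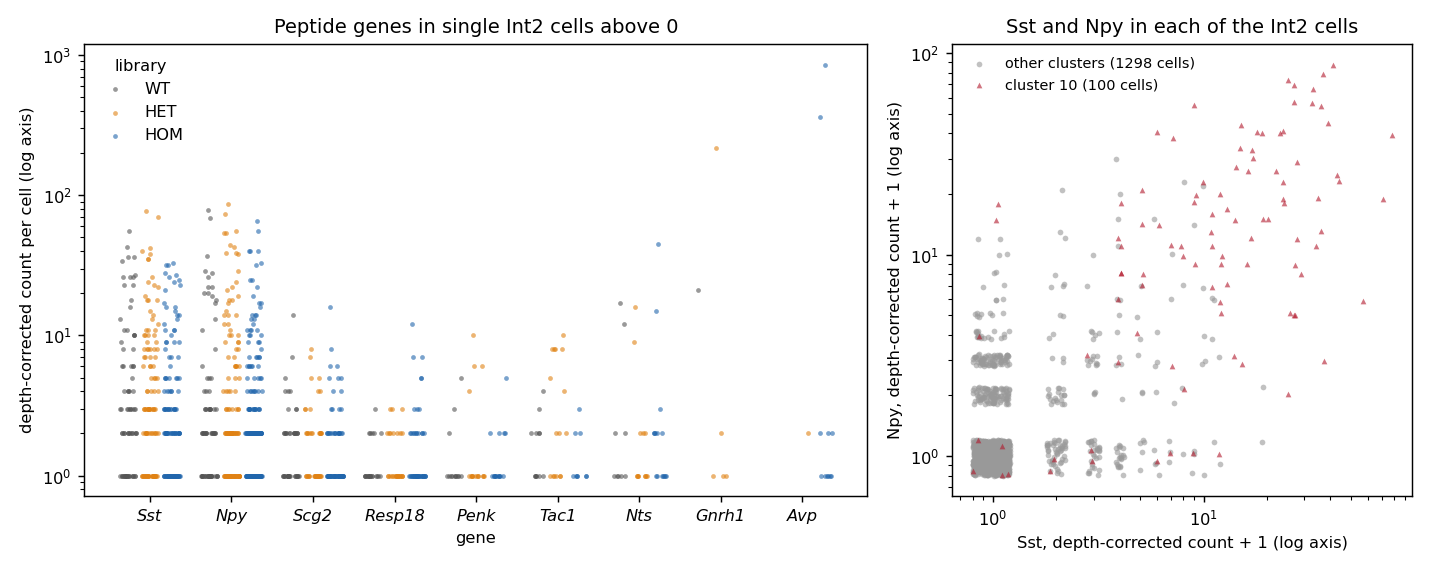
Left, depth-corrected count per cell of 9 peptide and secretory genes in the Int2 cells above 0, on a log axis, with 1 point per cell coloured by library; the HOM points of 856 and 359 stand alone for Avp and the HET point of 217 for Gnrh1, while Sst and Npy spread over 302 and 391 cells. Right, Sst against Npy in each of the 1398 Int2 cells, as count + 1 on log axes with a small jitter; the 100 cells of cluster 10 (triangles) fill the upper right, and the 1298 others (circles) lie mostly near 0.

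A different secretory set lay in cluster 9, whose cells were otherwise mostly deep-layer cortical neurons. Its 81 Int2 cells included both high Avp cells. Scg2 was above 0 in 44.4% of them (interval 33.4 to 55.9) against 11.7% of all Int2 cells, and Resp18 in 21.0% (12.7 to 31.5) against 7.08%. They held 51.0% of the Int2 sum of Nts, the precursor of neurotensin. Of the sum of Scg2 they held 38.2%, against 42.7% in the far more numerous cells of cluster 5, and of that of Penk, the enkephalin precursor, 29.3%, against 32.9% in cluster 5 and 22.0% in cluster 10. Sst was above 0 in 11.1% of the cells of cluster 9, and Scg2 in 14% of those of cluster 10 and 11.5% of those outside it. In the Nts sum a single cell counted for 45 of 157.

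The 842 cells of cluster 5, the main body of Int2, held less Sst and Npy than their number. Their levels were 570 per 1000000 for Sst and 650 for Npy, with 20.1% and 24.2% of cells above 0, and they held 23.2% and 22.2% of the Int2 sums. Of the sums of Resp18 and Calb1 they held 56.6% and 67.4%, beside 60.2% of the cells. The genes that were highest in them against the rest of Int2 were Gnrh1, through its lone cells, then the transcription factors Tcf7l2 (64.0 against 11.3), Nr2f2 (62.9 against 16.2) and Zfhx3 (53.9 against 16.2), and Ndnf (55.0 against 17.8), a secreted protein gene of superficial cortical neurons. Hap1, the huntingtin-associated protein, was at 215 against 90.6. Tcf7l2 rested on 22 cells in all of Int2, so its level there has little precision. The remaining Int2 cells were spread over clusters 3 (139 cells), 1 (125), 6 (100), 13 (8) and 11 (3), whose other cells were mainly projection neurons, striatal neurons, Int4 cells and glia.

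Int2 cells carried the GABA genes less often than the other Int types, and most of the deeper ones that carried a glutamate transporter were HOM. Any of Gad1, Gad2 (glutamate decarboxylases) and Slc32a1 (the vesicular GABA transporter) was above 0 in 29.4% of Int2 cells (interval 27 to 31.9), against 63.4% of Int1, 55.7% of Int3 and 54.8% of Int4. Depth differed between the types, so the share was also taken within depth classes. Below 1000 molecules it was 20.5% (18.0 to 23.2) in Int2 and 26.9%, 22.4% and 20.8% in Int1, Int3 and Int4. At 2000 molecules or more it was 68.9% (59.8 to 76.9) in 122 Int2 cells, and 81.0%, 84.2% and 91.6% in the others, whose intervals lay above that of Int2. In Microglia of that depth it was 7.29%.

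Slc17a6 or Slc17a7, the vesicular glutamate transporters of projection neurons, were above 0 in 9.02% of the deep Int2 cells (11 of 122, interval 4.59 to 15.6). Of the 11 cells 9 were HOM (16.4% of 55, interval 7.77 to 28.8). A further 1 was WT (of 26, interval 0.0973 to 19.6) and 1 HET (of 41, 0.0617 to 12.9), and these intervals overlapped that of HOM. In the WT and HET libraries alone, a choice made after the values were seen, the share was 2.99% (2 of 67, interval 0.364 to 10.4), and its interval overlapped those of Int1 (0.813%), Int3 (1.61%) and Int4 (0.835%). Over all libraries the same share was 1.20% in Int1, 1.15% in Int3 and 0.822% in Int4, and 26.5% in LayerI cells, the glutamatergic neurons of the cortical surface. Over all depths the 2 classes met in 6 Int2 cells. The Slc17a6 level of Int2 was 9.28 per 1000000 for WT, 15.4 for HET and 37.6 for HOM. Either transporter was above 0 in 4.75% of HOM Int2 cells (3.20 to 6.75) against 1.67% in WT (0.545 to 3.86), with overlapping intervals. In cluster 10, 1.00% of Int2 cells had a glutamate transporter, against 8.64% in cluster 9 and 3.09% in cluster 5.

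**Figure D2:**
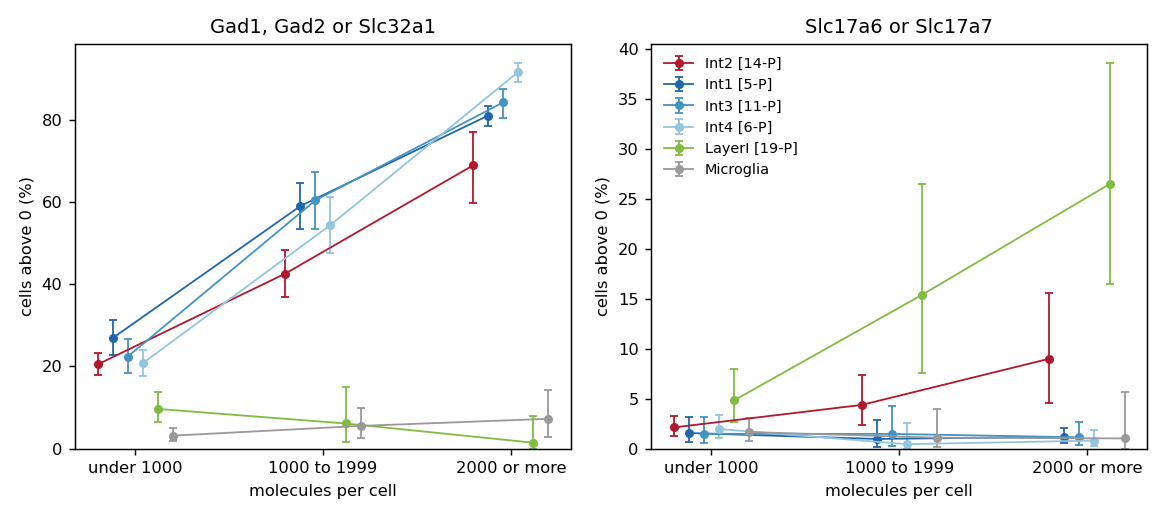
Share of cells above 0 (%) for any of Gad1, Gad2 and Slc32a1 (left) and for Slc17a6 or Slc17a7 (right), by molecules per cell; points are shares over all libraries and bars exact 95% intervals. In the deepest class Int2 (red) sits at 68.9% on the left, below Int1, Int3 and Int4, and at 9.02% on the right, above them and below LayerI at 26.5%, with 9 of the 11 Int2 cells behind that point in HOM.

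Against the mean of Int1, Int3 and Int4, Int2 had more RNA for peptides, dense core vesicles and synapses, and less for interneuron identity. Of 9823 genes with a sum of at least 50, 468 (4.76%) were more than 2-fold higher in Int2 and 1557 (15.9%) more than 2-fold lower, with a median log2 ratio of -0.26. The sign was the same in all 3 libraries for 443 and 1504 of them. In cells of 500 to 1500 molecules, a range chosen after the values were seen so that depth was alike, 7181 genes were measured, 231 were past 2-fold higher and 401 lower, and the median was -0.12. Since the type names were given to the cells from these same counts, the ratios below are descriptions.

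Peptide precursors were high in Int2, in part because 4 of them are among the genes that mark it. Of 39 in the table, 12 were measured, 8 were more than 2-fold higher in Int2 and 0 lower, and their median log2 ratio was 3.04. Without the marking genes Avp, Gnrh1, Sst and Tac1, 4 of 8 were more than 2-fold higher and the median was 1.02. Nts (104 against 4.71 per 1000000, log2 ratio 4.47), Penk (54.3 against 2.5, 4.44) and Npy (1728 against 258, 2.74) were among them, while Cck (-0.79) and Pnoc (-0.93), precursors of cholecystokinin and nociceptin, were lower. Oxt and Vip were listed at 0 in every Int2 cell. Without the 4 cells highest in Avp or Gnrh1 the median of the list was 2.05. Without the cells of cluster 10 it was 1.41, below the hypothalamic and diencephalic factors at 1.67, with Sst at 1.62 in place of 3.34 and Npy at 1.20, while Penk stayed at 4.21 and Tac1 at 3.58.

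The machinery of dense core vesicles went with the peptides. Of 24 measured genes 10 were more than 2-fold higher and 0 lower, with a median of 0.78. Scg2 was at 222 against 18.4 (3.60), the granin Chgb at 168 against 56.7 (1.57) and Pcsk1n, an inhibitor of prohormone cleavage, at 1504 against 623 (1.27). Cyb561, which is in no fixed list and was among the 20 genes highest in Int2, is the vesicle cytochrome that supplies electrons for peptide amidation, and stood at 27.2 against 3.20 (3.08), whereas the amidating enzyme gene Pam was at 60.3 against 85.2 (-0.50). In cells of 500 to 1500 molecules the list had a median of 0.71, and without the cells of cluster 10 of 0.76, so it did not rest on the Sst and Npy cells.

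Synapse and vesicle genes had a median of 0.57 (12 of 34 past 2-fold higher, 1 lower) and calcium-binding proteins of 0.93 (7 of 16, and 0 lower). Gap43, a growth cone protein gene, was at 1466 against 278 (2.40), Sncb, beta-synuclein, at 276 against 64.0 (2.11), and the calcium sensor genes Vsnl1 and Hpca at 2.21 and 2.03. Grin3a, a glutamate receptor subunit, was at 90.8 against 10.9 (3.06). Of the imprinted genes Ndn, a brake on cell division in neurons, was at 669 against 206 (1.7) and Nap1l5 at 359 against 112 (1.68).

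Genes of GABA interneuron identity were lower. The GABA list had a median of -1.28 (0 of 12 past 2-fold higher, 6 lower), the MGE list of -1.07 (6 and 12 of 24) and the list for the caudal ganglionic eminence (CGE) of -1.41 (0 and 10 of 18). Dlx1, a homeobox factor of interneuron development, was at 161 against 852 (-2.40), Gad2 at 155 against 520 (-1.75) and Erbb4, the neuregulin receptor of migrating interneurons, at 45.7 against 323 (-2.82). Adarb2, an RNA-editing family gene of CGE interneurons, was at 33.8 in Int2, against 12.7 in Int1, 2512 in Int3 and 255 in Int4, so its log2 ratio of -4.78 rests on Int3. The 6 MGE genes past 2-fold higher included Sst, Npy, Calb1, Grin3a and Tac1, so within that list the peptide and calcium-binding genes went one way, and factors such as Mef2c (-1.28), Maf (-2.11) and Zeb2 (-2.49) the other. Of 4 genes that the study tagged the Int types with, Grin3a was higher in Int2 and Npas1 (-2.19), Neb (-3.40) and Cdca7 (-3.32) lower, and since the study chose them on these cells they are no independent evidence. Against all other cells of the tissue, instead of the other Int types, Gad2 was higher in Int2 (0.17).

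Genes of other neurons, from inside and outside the cortex, were often higher in Int2. Of 9 measured hypothalamic and diencephalic factors 5 were more than 2-fold higher and 0 lower, with a median of 1.55. Lhx8, a factor of basal forebrain neurons, stood at 27.2 against 2.91 (3.22), Tcf7l2, known from the thalamus, at 42.4 against 4.61 (3.20) and Six3, a forebrain homeobox gene, at 26.5 against 5.38 (2.30). Striatal projection neuron genes had a median of 1.12 (9 of 15 past 2-fold higher, 1 lower), which was 0.44 in cells of 500 to 1500 molecules and -0.10 in the WT library alone. Ache, acetylcholinesterase, was at 28.5 against 3.36 (3.08). Of the cortical lists, glutamate neuron genes had a median of 0.71 (3 of 11 past 2-fold higher, 0 lower), layer I genes of 0.71 (4 and 2 of 13) and cortical layer markers of 0.37 (4 and 1 of 17), so the higher levels were not particular to genes of other regions. The defining hypothalamic factor Otp was above 0 in 6 Int2 cells, all HOM.

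Markers of non-neuronal cells were present at low levels in Int2 and partly moved with these contrasts. Astrocyte and radial glia markers had a median of 0.11, at -0.37 in cells of 500 to 1500 molecules, microglia markers 0.54 and -0.12, and the 4 measured blood cell markers 0.70, all 4 higher. Hypoxia and glycolysis genes had a median of 0.54 with 6 of 24 past 2-fold, and 0 of 20 past 2-fold in cells of 500 to 1500 molecules. The part of these markers in the other lists was not tested.

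**Figure D3:**
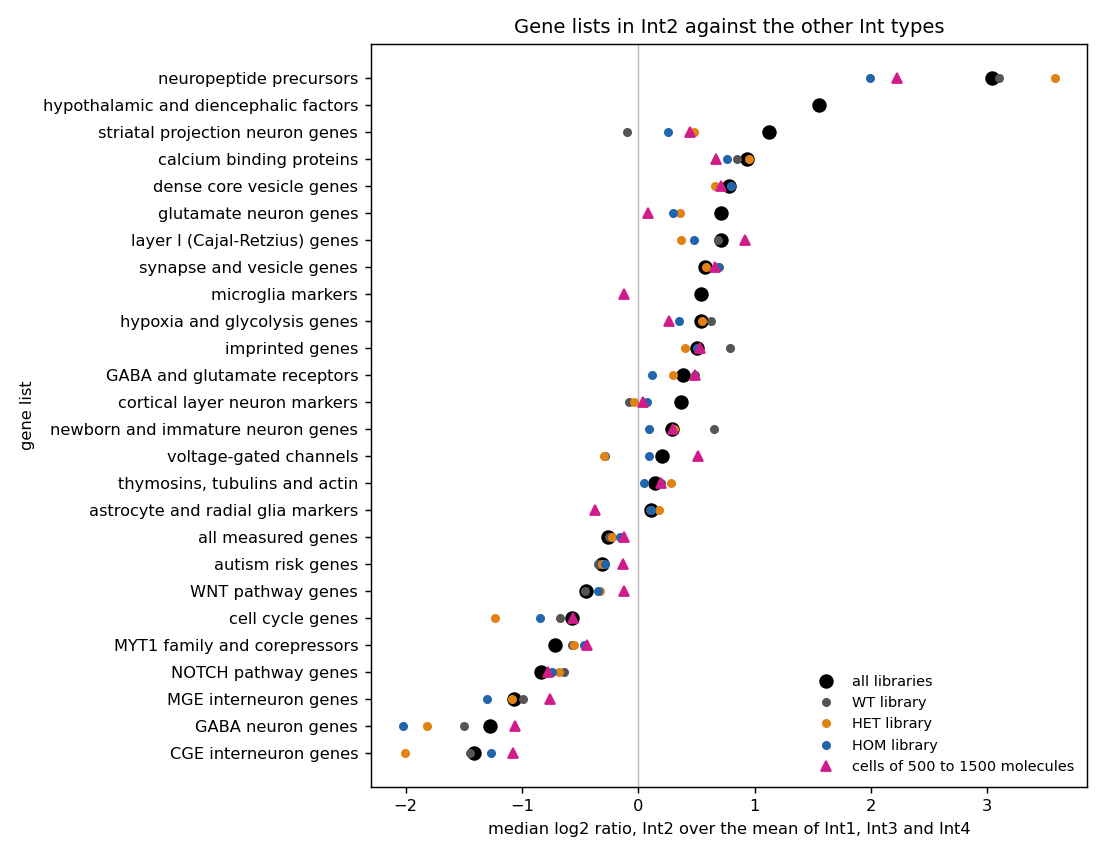
Median log2 ratio of 25 of the 36 gene lists and of all measured genes in Int2 over the mean of Int1, Int3 and Int4, for all libraries (black), each library alone (grey, orange, blue) and cells of 500 to 1500 molecules (triangles). Of the lists drawn, which do not include the 6 marking genes or the 4 tag genes as lists, peptide precursors stand furthest right at 3.04 and CGE interneuron genes furthest left at -1.41, and all measured genes lie at -0.26.

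Int2 cells made up a larger share of the libraries labelled HET and HOM than of that labelled WT. They were 299 of 10503 WT cells (2.85%, interval 2.54 to 3.18), 488 of 12072 HET cells (4.04%, 3.70 to 4.41) and 611 of 13688 HOM cells (4.46%, 4.12 to 4.82). The ratio to WT was 1.42 in HET (1.23 to 1.64) and 1.57 in HOM (1.37 to 1.80). Among cells named Int1 to Int4 the share was 18.9%, 26.8% and 27%. Of the other Int types, Int1 went from 3.72% to 4.44% and 5.99% of all cells and Int4 from 5.82% to 3.95% and 2.89%.

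In cells chosen for depth or name probability the ratio to WT was lower, with intervals that held the value over all cells. Among cells of at least 2000 molecules the ratio was 1.34 in HET (0.824 to 2.19) and 1.35 in HOM (0.848 to 2.15), on 26 WT, 41 HET and 55 HOM cells, so no difference was detectable at that depth. With a name probability of at least 0.9 it was 1.25 (1.06 to 1.49) and 1.40 (1.19 to 1.65), and with the Int2 cells of cluster 5 alone 1.15 (0.957 to 1.38) and 1.45 (1.22 to 1.72). The Int2 cells of cluster 10 made up 0.219% of WT, 0.331% of HET and 0.270% of HOM cells, and 7.69%, 8.20% and 6.06% of Int2, with overlapping intervals. By the totals that the study prints, the lowest share would be that of -/- and not of +/+, so the direction rests on the labels. Genotype, animals, sex and library preparation cannot be told apart with 1 library each.

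**Figure D4:**
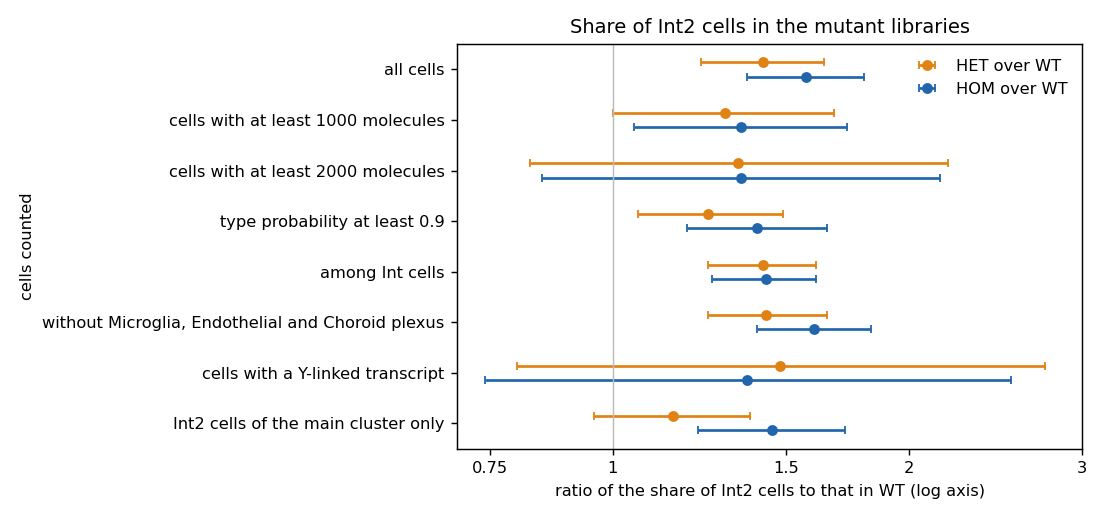
Ratio of the share of Int2 cells in HET (orange) and HOM (blue) to that in WT, on a log axis, for all cells and for 7 other choices of the cells counted; bars are 95% intervals from counting error. All points lie above 1, from 1.15 to 1.6, and the bars cross 1 for cells of at least 2000 molecules, for cells with a Y-linked transcript and, in HET, for the main cluster.

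In Int2 the level of the targeted gene Myt1l was 244 per 1000000 for WT, 398 for HET and 598 for HOM, above WT in both other libraries. The order was the same in all other cells, at 374, 452 and 715. A count per gene does not tell the mutant from the intact transcript, so it checks neither the deletion nor the protein, and does not settle which library has which genotype. HET and HOM are both set against the same WT library of 299 Int2 cells, and their values are therefore not independent.

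For the abundant peptide genes the intervals of the 3 genotypes overlapped in the share of cells above 0, and Sst had its lowest level in HOM. The Sst level was 1881 for WT, 1704 for HET and 1043 for HOM, with 25.1% (20.3 to 30.4), 21.5% (17.9 to 25.4) and 20.0% (16.9 to 23.4) of cells above 0. In the cells of cluster 10 the level was 16658, 13520 and 9630, on 23, 40 and 37 cells, and outside them 572, 432 and 385, so HOM was lowest in both. The median depth of the cluster 10 cells went the other way, at 904, 1322 and 1710 molecules, and its part in the Sst levels was not tested. In Int1, by contrast, Sst was at 356, 363 and 331. Npy stood at 1726, 2048 and 1478 in all Int2, and its HOM over WT log2 ratio of -0.22 turned to 0.55 without the cells of cluster 10. In all other cells of the tissue Npy was at 210, 265 and 390.

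Less frequent genes had larger ratios on few cells. Tac1 was at 65.0, 121 and 19.5, with 12, 16 and 9 cells above 0, and Lhx8 at 40.2, 44.2 and 7.52, with 10, 18 and 4 cells. Scg2 was at 309, 167 and 223, above 0 in 15.7% (11.8 to 20.3), 8.61% (6.27 to 11.5) and 12.1% (9.63 to 15) of cells. Resp18 was at 92.8, 78.8 and 143, and Calb1 at 95.9, 80.7 and 97.7, with overlapping shares. Nos1 stood at 77.3, 59.6 and 81.2.

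In HET Int2 cells 2816 genes were measured against WT, of which 40 (1.42%) were more than 2-fold higher and 49 (1.74%) more than 2-fold lower. With TMM scaling, which moved the median of all genes from 0.03 to 0.12, the counts were 60 and 31. Gnrh1, through its lone cell, was furthest above WT. Cct3, a chaperonin subunit, was at 121 per 1000000 in WT and 263 in HET (log2 ratio 1.13, and 0.11 in all other cells). Srm, spermidine synthase, was at 83.5 and 177 (1.08 and 0.28), and Park7, an antioxidant protein gene, at 213 and 423 (0.99 and 0.21). Among the genes lowest in HET, Sv2a, a synaptic vesicle protein gene, was at 207 and 92.2 (-1.17, and -0.23 in all other cells), and St8sia2, a polysialic acid synthase, at 183 and 78.8 (-1.21 and -0.48). The HET ratio of Sv2a was -0.44 in Int1, -0.63 in Int3 and 0.18 in Int4. Its HOM ratio was -0.70 in Int2, -1.24 in Int1, -0.98 in Int3 and 0.46 in Int4. Clstn1 (-1.05), Sdc3 (-1.03), Cxadr (-1.0) and Hap1 (-1.07) were also among the 10 lowest, and Hap1 was at -1.0 in all other cells too.

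In HOM Int2 cells 3264 genes were measured, 56 (1.72%) were more than 2-fold higher and 49 (1.50%) more than 2-fold lower. With TMM scaling the median went from 0.01 to 0.11 and the counts to 96 and 23. Avp and Ptgds, listed at 0 in WT, stood at 1845 and 179. Ptgds, the prostaglandin D synthase of meninges and choroid plexus, was at 6.23 in WT and 651 in HOM over all other cells, so it was higher there too. The mitochondrial genes Timm10b (43.3 in WT and 146 in HOM, 1.75) and Mrps33 (102 and 229) were higher, against 0.42 and 0.23 in all other cells. S100a10 (65.0 and 176, 1.44), a calcium-binding protein gene of the S100 family, was also higher elsewhere (1.27).

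Among the genes lowest in HOM Int2 cells were Pcdh10, a protocadherin of neuronal adhesion, at 207 and 81.2 (-1.35, and -0.31 in all other cells), and Lmo3, a transcriptional cofactor, at 164 and 70.7 (-1.21 and -0.51). Pcdh10 was at -1.44 in Int1 and -0.85 in Int3, against 0.33 in Int4, so its fall was not particular to Int2. Rnf11, a ubiquitin ligase gene, was at 201 and 94.7 (-1.09 and -0.28), Atp6v0a1, a subunit of the vesicular proton pump, at 266 and 126 (-1.07 and -0.24) and Ap2b1, an adaptor subunit of endocytosis, at 210 and 102 (-1.04 and -0.41). Nudcd3 (-1.24, and -1.22 elsewhere) and AC149090.1 (-1.34 and -0.92) were lower to a like degree throughout the tissue. St8sia2 (-1.07) and Dcaf7 (-1.02) were among the 10 lowest in HOM as in HET (-1.21 and -1.11), against the shared WT library. Whether any gene differed more in Int2 than in other cells was not tested, since each value is a single library.

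**Figure D5:**
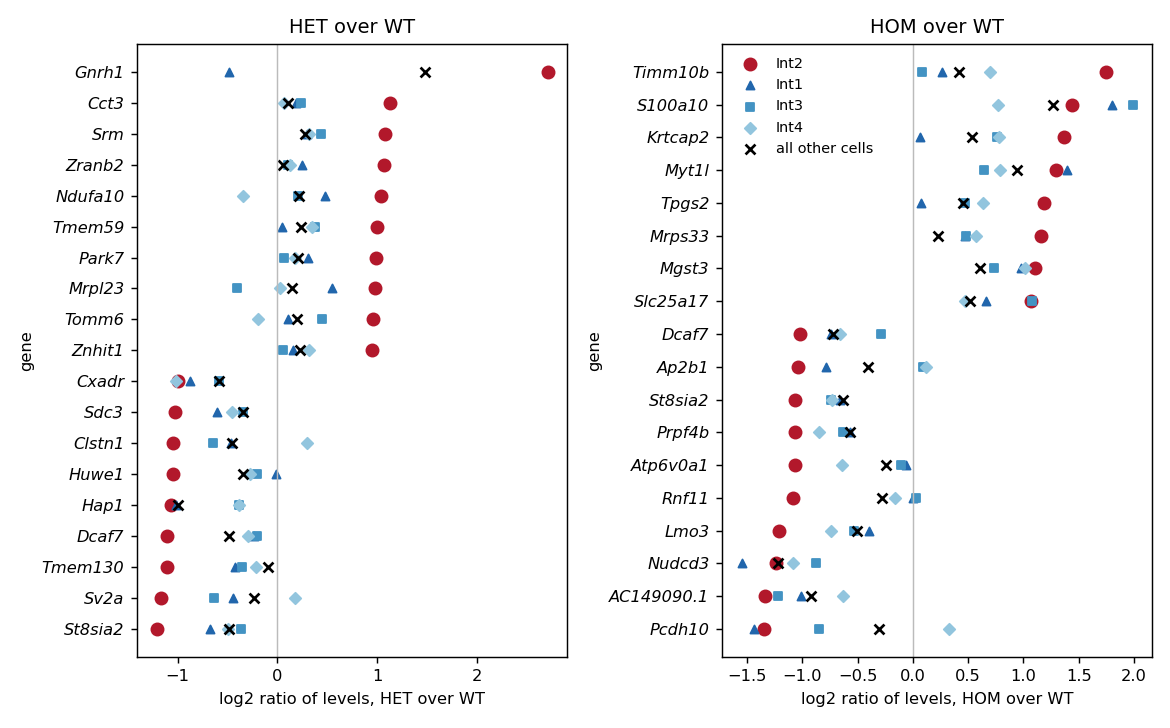
Log2 ratio of levels, HET over WT (left) and HOM over WT (right), of the genes furthest from 0 in Int2 among those with a sum of at least 100, with the same ratio in Int1, Int3, Int4 and all other cells; genes listed at 0 in Int2 of a library, and 1 other gene in HET, are left out. Sv2a in HET lies at -1.17 in Int2, -0.63 in Int3, -0.44 in Int1, -0.23 in all other cells and 0.18 in Int4. S100a10, Myt1l and Nudcd3 in HOM lie close to the other cells.

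By gene group, receptors and channels were lower in Int2 of the HET and HOM libraries than in WT. A gene entered if its sum over WT and the mutant library reached 50. One near that bound can enter through a high WT value, and the part of this in the counts was not tested. Over all measured genes, 1504 of 2816 were higher in HET, and 1659 of the 3262 with a ratio in HOM. Past 2-fold lower were 1.74% and 1.50% of all genes. Of 14 measured GABA and glutamate receptor genes 0 were higher in HET and 1 was past 2-fold lower, with a median log2 ratio of -0.41 against 0.03 for all genes. In HOM 2 of 15 were higher and 4 past 2-fold lower, with a median of -0.46 against 0.01. Over the same genes the median in Int1, Int3 and Int4 together was 0.06 in HET and -0.03 in HOM, and in all other cells of the tissue -0.06 and -0.14. Grin1, the obligate subunit of NMDA receptors, was at 102 per 1000000 for WT, 48.0 for HET and 48.1 for HOM (-1.09 in both). Grm5, a metabotropic glutamate receptor, was at 130, 90.3 and 49.6, and Grik2, a kainate receptor subunit, at 89.7, 61.5 and 37.6, both stepping down from WT to HET to HOM. Gria2, an AMPA receptor subunit, was at 300, 286 and 265.

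Voltage-gated channels had a median of -0.60 in HET (0 of 6 higher) and -0.41 in HOM (1 of 8), against -0.05 and -0.03 in the other Int types and -0.17 and -0.26 in all other cells. Scn2a, a sodium channel gene, was at 152 for WT, 78.8 for HET and 76.7 for HOM. Synapse and vesicle genes had medians of -0.16 (8 of 27 higher) and -0.20 (7 of 31), against 0.06 and 0.12 in the other Int types and 0.06 and -0.12 in all other cells. Dense core vesicle genes had medians of -0.34 (2 of 14) and -0.15 (4 of 14), against 0.11 and 0.20 in the other Int types and 0.13 and 0.01 in all other cells. Autism risk genes were at -0.16 and -0.46 in Int2 and at -0.24 and -0.44 in all other cells. Among them Tcf4, a helix-loop-helix factor, was at 421, 388 and 254 and Cul3, a ubiquitin ligase scaffold, at 133, 48.0 and 63.1. All WNT pathway genes measured were below WT, 5 in HET (median -0.25) and 6 in HOM (-0.50), and 2 of those in HOM were past 2-fold lower. They were low throughout the tissue, with medians of -0.31 and -0.37 in all other cells and -0.30 and -0.31 in the other Int types. The WT library had the fewest Int2 cells.

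GABA neuron genes were at -0.16 in HET (2 of 9 higher) and -0.27 in HOM (2 of 8), close to the other Int types at -0.15 and -0.24. MGE genes were at 0.17 (7 of 12) and -0.29 (2 of 11), against 0.37 and 0.50 in the other Int types. Layer I genes stood at -0.36 (1 of 4) and -0.10 (1 of 5), imprinted genes at -0.13 (3 of 12) and 0.00 (8 of 15), and the hypothalamic factors at -0.43 in HOM (1 of 4).

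Some groups stood at or above WT, beside 1504 of 2816 genes that were higher in HET and 1659 of 3262 in HOM. Thymosins, tubulins and actin were higher for 12 of 14 genes in both libraries (medians 0.26 and 0.16), hypoxia and glycolysis genes for 10 of 15 and 13 of 17 (0.23 and 0.27), and newborn neuron genes were near 0 (0.06 and -0.01). In all other cells the first of these were higher for 13 of 14 genes in both libraries (0.23 and 0.22) and the hypoxia genes for 12 of 15 and 14 of 17 (0.34 and 0.66), so neither was particular to Int2. Astrocyte and radial glia markers moved with genotype as well, with 8 of 9 higher in HET (median 0.36) and 9 of 10 in HOM (0.39), and a summed level of 2892, 3529 and 4456 per 1000000. Fabp7, a fatty acid binding protein of radial glia, was at 996, 1304 and 1812 in Int2 and at 2004, 2820 and 3262 in all other cells. The blood cell markers summed to 1528, 1308 and 2185, and the meningeal and choroid markers to 27.8, 30.7 and 214. The part of these markers in the lower receptor and channel levels was not tested.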

How the data were processed

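The members and the gene lists were chosen with earlier results of these data known. Reads were processed by the authors with Cell Ranger 4.0.0 on mm10 and Seurat 4.0, and cells with few or very many genes or much mitochondrial RNA were removed. Doublet removal and the step that corrected the values for depth are not given in the sources used here. The deposited matrix holds whole-number scores per gene and cell, which are depth-corrected counts, so no count model was fitted. The deposited cell table gives the molecule count, the mitochondrial percent, the probability (a fraction) of the transferred type, the type name and the cluster of each cell. The authors' own comparisons (fold changes and p-values) were not used.

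Values were summed per library and type and divided by the total, per 1000000 (Python 3.11.15, numpy 2.4.6, pandas 2.3.3, and scipy 1.17.1 for the intervals). Log2 ratios carry no pseudocount, and a gene at 0 in a group is listed at 0. Genes needed a sum of at least 50, ranked genes 100, and a call was past 2-fold. Cells of unequal depth were compared within classes of molecules, since the matrix holds no raw counts to thin. On data simulated for a mutant library against WT in Int2 (2774 genes), 200 of 200 genes changed 3-fold were recovered. The changed genes were drawn from those with a WT sum of at least 100, with Poisson noise only. Recovery was therefore near certain, and it checks the code alone. It says nothing of genes near the minimum sum or resting on few cells. Named genes were drawn from the given markers, the study's tag genes, Myt1l, the highest or called members of each of 36 lists, and the genes ranked highest and lowest in each comparison, and others were named after their values were seen. Some genes that met this rule are not reported here. The mean over cells, other scalings, filters and depth classes were tried, and leaving out the 4 cells highest in Avp or Gnrh1, the cells of cluster 10, all but cells of 500 to 1500 molecules, all but the main cluster, and the HOM library for the glutamate transporters were chosen after the data were seen.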

Additional observations from a re-analysis of the deposited data

How the results depend on the processing

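No paired analysis was possible because each genotype was 1 library and its replicate numbers are sequencing runs. Each of the following was recomputed with 1 choice changed, and the cause of a difference was not tested unless the setting itself removes genes or cells. For genes past 2-fold between genotypes in Int2 (40 higher and 49 lower in HET, 56 and 49 in HOM), a minimum sum of 20 gave 223, 307, 289 and 316 in that order, and a minimum of 200 gave 1, 5, 5 and 3, since far more or fewer genes were then measured. Cells of at least 1000 molecules gave 8 and 14 of 1163 genes in HET, and 22 and 14 of 1463 in HOM. The main counts were of 2816 and 3264 genes. TMM gave 31 lower in HET, and 96 higher and 23 lower in HOM, and median of ratios 63 and 31 in HET and 87 and 30 in HOM. In cells with a Y-linked transcript far fewer genes were measured and most past 2-fold were higher. They gave 46 higher and 4 lower of 211 in HET, with a median log2 ratio of 0.45. In HOM they gave 53 higher and 5 lower of 232, with a median of 0.44. Against the other Int types (468 higher and 1557 lower of 9823 genes), a minimum sum of 20 gave 774 higher of 11593. A minimum of 200 gave 161 and 668 of 5579. The WT library alone gave 281 higher of 6351 genes, the HET library alone 214 higher of 6510 and the HOM library alone 925 lower of 7003. Fewer genes were measured in a single library, so these counts are not to be set directly against those of all libraries. Cells of 500 to 1500 molecules gave 231 and 401, also on fewer genes, and comparison with all other cells gave 2860 lower of 13622.

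The ratio of the HOM to the WT share of Int2 was 1.35 for cells of at least 1000 molecules and also for those of at least 2000, against 1.57, and that of HET was 1.15 with the main cluster only, against 1.42. Without the HOM library, 2.99% of deep Int2 cells had a glutamate transporter, against 9.02%. The share of cells above 0 moved with depth. At 1000 molecules or more, and at 2000 or more, it was 28.0% and 34.4% for Sst, 33.3% and 37.7% for Npy, 19.9% and 25.4% for both, 31.8% and 40.2% for 2 or more precursors, 50.2% and 68.9% for the GABA genes, and 5.74% and 9.02% for the glutamate transporters. With a value of at least 2 required the shares were 15.6%, 18.7%, 9.37%, 11.7%, 8.08% and 0.858%.

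Of the list medians of at least 0.3 in size, 10 values changed sign. Against all other cells they were 0.08 for GABA neuron genes, 0.73 for MGE genes, -0.93 for cortical layer markers, -1.87 for glutamate neuron genes and -2.17 for microglia markers. Cortical layer markers were also at -0.08 in the WT and -0.04 in the HET library alone, and at -0.28 with a minimum sum of 200. Striatal genes were at -0.10 in the WT library alone, and microglia markers at -0.12 in cells of 500 to 1500 molecules. Of the named genes past 2-fold, Gad2 (0.17) and Npas1 (0.47) changed sign against all other cells. Of the 782 values of named genes, 46 moved from past 2-fold to below it, 22 the other way, and 712 did neither. A changed minimum sum leaves each ratio as it is, so those values are among the 712 by construction. The 712 also include genes that were below 2-fold and stayed there, so the count is no measure of stability. Of 95 recomputed main counts, shares and share ratios, 52 left the bounds set around the main value and 43 stayed within them. Below 2-fold, the HOM over WT ratio of Npy (-0.22) was 0.46 and the HET over WT ratio of Sst (-0.14) 0.35 in cells of at least 1000 molecules. With 122 Int2 cells of 2000 molecules or more, depth limited every share given for that class.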
